A study of Mus with 18 samples.

Results

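Uninjured lens epithelial cells (LECs) of Egr1KO and wild-type (WT) mice were compared in 6 of the 18 libraries of the series, the 3 Egr1KO and the 3 WT libraries taken at 0 h, immediately after the fiber cell mass had been taken out of the lens. These libraries were chosen by their labels alone. Of the 55416 gene IDs in the deposited count tables, 28989 had no count in any of the 6 libraries, and 14373 were detectable at a level that could be tested. Of those, 59 were differentially expressed genes (DEGs), defined as a false discovery rate (FDR) of at most 0.05 in edgeR's exact test and a change of more than 2-fold.

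Per the labels, the Egr1KO mice were homozygous for a systemic null allele in which a neo cassette sits in exon 2 and truncates the protein. The cells of every tissue thus carried the allele throughout life, and a change in the lens cannot be told apart from one that follows from its loss elsewhere. The WT mice are labelled wildtype with no further allele, and the labels give all libraries as C57BL/6. The study's methods give a mixed C57BL/6N and 129 origin for the Egr1 allele, and they do not state whether the WT mice of the sequenced pools were littermates, as the study states for the mice of its lens morphology, so the null allele and linked or background differences between the mice cannot be told apart. FosBcKO mice, used below for comparison, carried a floxed Fosb gene and MLR10 Cre, which is driven in the lens by a modified alpha A crystallin promoter. All 3 genotypes were sampled at 0 h and at 6 h of this model of cataract surgery (PCS, post cataract surgery), with 3 libraries in each group. Each library pooled 5 lens capsules with their attached cells, from mice of both sexes aged 3 to 5 months. Per the labels the second eye of each mouse was operated 6 h after the first and both were then harvested, so the 0 h and 6 h capsules may come from the same mice.

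Egr1 encodes a zinc finger transcription factor of the immediate early class, which growth factors, stress and injury induce through ERK/MAPK signaling and serum response factor. Its activity is held back by the NAB corepressors, which are themselves targets of EGR factors. LECs form a single epithelial layer under the anterior lens capsule, maintain the capsule and supply new fiber cells. After cataract surgery the LECs that remain on the capsule mount a wound response in which immediate early genes are among the first to be transcribed.

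The 6 libraries held between 9609295 and 12255838 read pairs counted in genes. Levels are given as CPM, the count of a gene per 1000000 read pairs counted in genes of the library. The correlation of log2 CPM over the genes tested was 0.928 to 0.963 among the WT libraries and 0.957 to 0.967 among the Egr1KO libraries. Between the genotypes it was 0.935 to 0.964, so the ranges overlapped. Such correlations follow mostly the level of each gene, so they cannot show whether the libraries stood apart by genotype. The libraries differed in the share of read pairs that aligned outside annotated genes. This share was 19.8%, 18.5% and 15.2% in WT replicates 1 to 3 and 9.09%, 13.5% and 11.0% in Egr1KO replicates 1 to 3, and the groups did not overlap. Its part in the results below was not tested. The deposited tables do not pair gene IDs with gene names. The level of Egr1 itself was therefore not analysed here, and WT and Egr1KO name the libraries so labelled.

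Most of the transcriptome of uninjured LECs did not pass the test for a difference between Egr1KO and WT. The median log2 fold change over all 14373 genes was 0.01. The 59 DEGs were 0.41% of the genes tested, and 920 genes had an unadjusted p-value under 0.05. Of the DEGs, 13 were higher in Egr1KO (0.0904% of the genes tested) and 46 were lower (0.32%). A further 19 genes passed the FDR limit with a change of less than 2-fold. Another 746 genes differed by more than 2-fold without passing the FDR limit. DEGs were found at all levels of expression. They made up 0.595% of the 1682 genes with an average log2 CPM under 1, 0.439% of the 3413 genes from 1 to 3, 0.474% of the 4428 genes from 3 to 5 and 0.268% of the 4850 genes over 5. Lower DEGs outnumbered higher DEGs in each of these ranges, with 8, 12, 16 and 10 lower against 2, 3, 5 and 3 higher.

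The 46 genes that fell in Egr1KO LECs were mostly of low to moderate abundance in WT. Their mean level in WT ranged from 1.44 to 647 CPM with a median of 13.6 CPM, and 29 of them reached 10 CPM. In Egr1KO their means ranged from 0.118 to 71.7 CPM with a median of 4.37 CPM. The log2 fold changes ran from -4.16 to -1.001 with a median of -1.66 and a median standard error of 0.32. The fall exceeded 4-fold for 16 genes and lay between 2-fold and 4-fold for 30. Some of the 46 passed the filter on low counts, which set the genes tested, only with their WT libraries. One was the gene with the lowest Egr1KO mean, at 2, 2 and 0 read pairs in the Egr1KO libraries. For such genes only a lower call was possible, and the fold rests on few read pairs. For all 46 genes the highest Egr1KO library was below the lowest WT library, which the choice of these genes favors, and 9.32% of all genes tested showed such a gap in this direction.

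The lower DEGs were lower in each Egr1KO library, which their choice from these same 6 libraries favors. The values by library therefore describe the chosen genes and are no separate support. The median level over the 46 genes was 15.3, 16.0 and 12.2 CPM in WT replicates 1 to 3 and 4.04, 5.28 and 4.74 CPM in Egr1KO replicates 1 to 3. Their summed level was 1954, 1685 and 1543 CPM in WT and 450, 566 and 470 CPM in Egr1KO. No single WT library supplied the high values, since the highest WT value was in replicate 1 for 17 genes, in replicate 2 for 12 and in replicate 3 for 17. The lowest Egr1KO value was in replicate 1 for 24 genes, in replicate 2 for 9 and in replicate 3 for 13. The median coefficient of variation within a group was 23.4% in WT and 26.1% in Egr1KO. In RNA from pooled capsules, fewer cells that express a gene and less RNA per cell cannot be told apart.

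The printed examples are the genes with the largest changes in each direction among DEGs with an average log2 CPM of at least 1 and no overlap between the groups. ENSMUSG00000020912 had the largest fall. It measured 11.97, 3.47 and 5.45 CPM in the WT libraries and 0.571, 0.480 and 0.208 CPM in the Egr1KO libraries, which rest on 7, 5 and 2 read pairs. WT replicate 1 lay above the other WT libraries, and all 3 exceeded every Egr1KO library. The log2 fold change was -3.97 (SE 0.60, n = 3 per group), with an FDR of 2.41e-06 in edgeR's exact test. The low level was not particular to Egr1KO, since FosBcKO LECs at 0 h measured 1.16, 0.415 and 0.485 CPM. Against the same WT libraries their log2 fold change was -3.31, with an FDR of 0.000564 in edgeR's exact test. In both comparisons the gene passed the filter on low counts only with its WT libraries, so only a lower call was possible.

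ENSMUSG00000052688 measured 7.47, 9.51 and 11.3 CPM in WT and 0.816, 1.44 and 0.416 CPM in Egr1KO. Here the WT libraries lay close together and far above the Egr1KO libraries. The log2 fold change was -3.36 (SE 0.44, n = 3 per group), with an FDR of 2.00e-08 in edgeR's exact test. This gene also passed the filter on low counts only with its WT libraries, so only a lower call was possible.

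The most abundant of the lower DEGs, which was singled out after its values were seen, measured 875, 613 and 452 CPM in WT and 78.6, 84.9 and 51.7 CPM in Egr1KO. Its mean was 647 ± 214 CPM in WT and 71.7 ± 17.6 CPM in Egr1KO (SD, n = 3), a log2 change of -3.16 (SE 0.35) with an FDR of 1.60e-15 in edgeR's exact test. EdgeR's quasi-likelihood F-test, which allows for uncertainty in each gene's dispersion, gave it an FDR of 0.105. It was called by the exact test whichever of the 6 libraries was left out.

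The 13 genes that rose in Egr1KO LECs had mean levels of 0 to 125 CPM in WT and of 1.66 to 420 CPM in Egr1KO. Their median level was 8.90, 10.1 and 9.73 CPM in WT replicates 1 to 3 and 35.2, 19.2 and 17.6 CPM in Egr1KO replicates 1 to 3. The log2 fold changes had a median of 1.47, and 5 of the 13 genes changed by more than 4-fold. Among these 5 were genes that passed the filter on low counts only with their Egr1KO libraries, for which only a higher call was possible. All 13 had no overlap between the groups, which the choice of these genes favors, and 7.20% of all genes tested showed such a gap in this direction. Egr1KO replicate 1 had the highest value for 7 of the 13 genes, replicate 2 for 5 and replicate 3 for 1. The summed level was 969, 666 and 675 CPM in Egr1KO and 313, 186 and 279 CPM in WT.

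ENSMUSG00000112825 had the largest rise. No read pair was assigned to it in any WT library at 0 h, whereas the Egr1KO libraries held 110, 120 and 155, or 8.98, 11.5 and 16.1 CPM. With a floor of 3 counts over the WT group, its level was at least 130-fold higher in Egr1KO. The FDR was 1.07e-24 in edgeR's exact test. With no count in WT, the gene passed the filter on low counts at 0 h only through its Egr1KO libraries, so only a higher call was possible. The libraries did not overlap at 6 h PCS either, where WT held 4, 8 and 0 read pairs and Egr1KO held 84, 131 and 89. The FosBcKO libraries held 1 to 3 read pairs each at both times. This gene thus separated the 6 Egr1KO libraries from the other 12 libraries of the series.

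ENSMUSG00000105703 measured 0, 0.622 and 0.487 CPM in WT and 5.39, 7.30 and 5.62 CPM in Egr1KO at 0 h. The log2 fold change was 4.01 (SE 0.68, n = 3 per group), with an FDR of 4.83e-07 in edgeR's exact test. Here too the filter was passed only with the Egr1KO libraries, so only a higher call was possible. Unlike the gene before, it was also present in FosBcKO LECs, at 1.16, 1.04 and 5.14 CPM at 0 h, above every WT and below every Egr1KO library, with replicate 3 far above the other FosBcKO libraries. Egr1KO against FosBcKO at 0 h gave a log2 fold change of 1.30 with an FDR of 0.47 in edgeR's exact test. At 6 h PCS FosBcKO measured 3.26, 5.01 and 3.09 CPM and overlapped Egr1KO, at 3.86, 6.56 and 3.01 CPM.

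The most abundant of the higher DEGs, also singled out after its values were seen, measured 174, 71.0 and 131 CPM in WT and 562, 324 and 375 CPM in Egr1KO. Its log2 fold change was 1.78 (SE 0.43), with an FDR of 0.0124 in edgeR's exact test and of 0.361 in the quasi-likelihood F-test. It was called in 3 of the 6 fits that each left out 1 library.

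**Figure D1:**
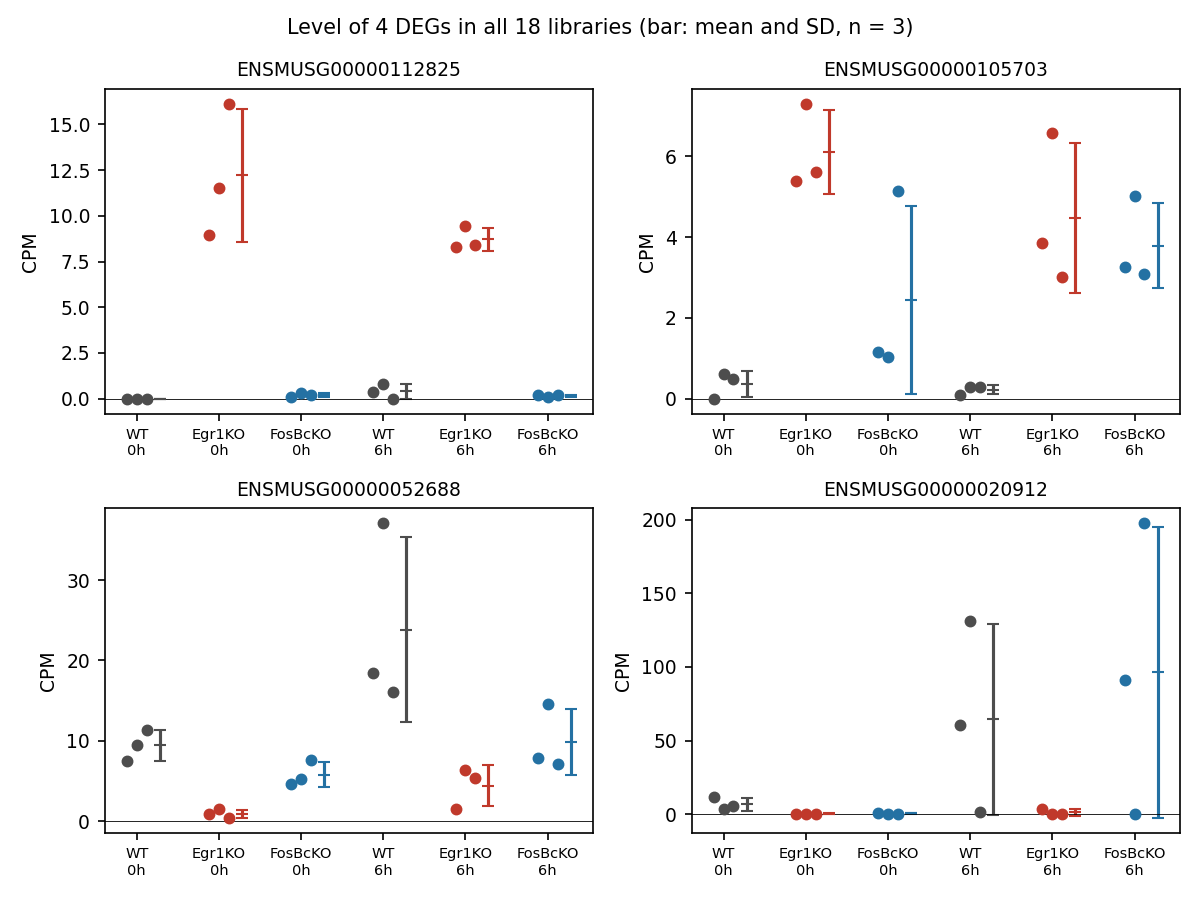
Level in CPM (vertical axes) of the 4 printed DEGs in all 18 libraries, by genotype and time (horizontal axes); points are libraries and the bar beside them is the mean with its SD (n = 3). At 0 h every Egr1KO library lies outside the WT range for each gene, and at 6 h PCS the WT and FosBcKO libraries of ENSMUSG00000020912 spread from 0.259 to 198 CPM.

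To ask whether the differences of uninjured cells were also present after injury, the 59 DEGs were read in the Egr1KO and WT libraries at 6 h PCS, which the 0 h comparison does not use. Their capsules may come from the same mice as the 0 h capsules, so a gene called at both times was not seen in separate animals for certain. Among all 15618 genes tested at 6 h, 115 (0.736%) were DEGs, 72 higher (0.461%) and 43 lower (0.275%). Of the 13 genes higher at 0 h, 11 were tested at 6 h and 4 were called, all of them higher. Of these 4, ENSMUSG00000112825 and ENSMUSG00000105703 passed the filter on low counts at 6 h only with their Egr1KO libraries. So did another, with 11, 3 and 3 read pairs in WT and 91, 96 and 43 in Egr1KO at 6 h. For these genes only a higher call was possible, so their direction at 6 h is no support. Of the 46 genes lower at 0 h, 45 were tested and 3 were called, all of them lower. The 7 genes called at both times were 11.9% of the 0 h DEGs and 6.09% of the 6 h DEGs. None was called in the opposite direction. By the quasi-likelihood F-test no gene was called at 6 h, and 1317 genes had an unadjusted p-value under 0.05. The number of DEGs at 6 h moved with single libraries, to 946 without Egr1KO replicate 2, 186 without Egr1KO replicate 1, 46 without Egr1KO replicate 3 and 54 without WT replicate 1, and the count shared with 0 h was 11 without Egr1KO replicate 2.

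At 6 h the higher DEGs had a larger median difference than the lower DEGs, and the difference between the lists was not tested. The median log2 fold change of the 11 higher DEGs tested at 6 h was 1.39, and 10 were positive, against 62.1% of all genes that were positive at 0 h. In 5 of the 11 the Egr1KO and WT libraries did not overlap at 6 h, against 3.17% of all genes tested. Higher DEGs with low counts in both groups at 6 h were not tested, so these values cover only genes that kept enough counts. The 11 include the genes named above that passed the filter only with their Egr1KO libraries. For those genes the filter favored a positive sign and a gap. The values of the higher DEGs thus cannot be weighed against the shares of all genes or against the lower DEGs. The median of the 45 lower DEGs was -0.19 with a range of -5.41 to 1.33, and 27 were negative, against 51.6% of all genes that were negative at 0 h. In 10 of the 45 the libraries did not overlap in the 0 h direction, against 13.8% of all genes tested. The median over all genes at 6 h was 0.03.

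The genes called at both times included all but one of the printed genes. At 6 h ENSMUSG00000112825 had an FDR of 2.77e-07, ENSMUSG00000105703 a log2 fold change of 4.44 with an FDR of 8.78e-06 and ENSMUSG00000052688 a log2 fold change of -2.26 with an FDR of 0.0222 in edgeR's exact test. The most abundant lower DEG was also called, with 727, 486 and 187 CPM in WT and 102, 61.3 and 34.3 CPM in Egr1KO at 6 h (log2 fold change -2.63, FDR 0.00391 in edgeR's exact test). ENSMUSG00000020912 measured 60.7, 131 and 1.43 CPM in WT and 3.76, 0.0721 and 0.0942 CPM in Egr1KO at 6 h. Its groups overlapped, since WT replicate 3 was below Egr1KO replicate 1, and each of these libraries lay far from the others of its group. Its log2 fold change of -5.41 had an FDR of 0.153 in edgeR's exact test. All 7 genes called at both times were DEGs at 0 h whichever of the 6 libraries was left out, and 6 of them were also called by the quasi-likelihood F-test at 0 h.

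Many of the genes that were lower in uninjured Egr1KO LECs belonged to the genes that injury raised. To measure this in libraries that the 0 h comparison does not share, FosBcKO LECs at 6 h PCS were compared with FosBcKO LECs at 0 h by the quasi-likelihood F-test. Of all 15475 genes tested, 1733 (11.2%) rose and 294 (1.90%) fell. Of the 46 lower DEGs, 23 rose and none fell. Their median log2 fold change was 2.22, with 42 of 46 positive, against a median of 0.05 and 52.5% positive over all genes. Of the 13 higher DEGs, 10 were tested, 1 rose and none fell, with a median of -0.05. The count of 23 depended on single libraries, and was 13 without FosBcKO 6 h replicate 1, where 5.16% of all genes rose, and 14 without FosBcKO 0 h replicate 3, where 4.76% rose.

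**Figure D2:**
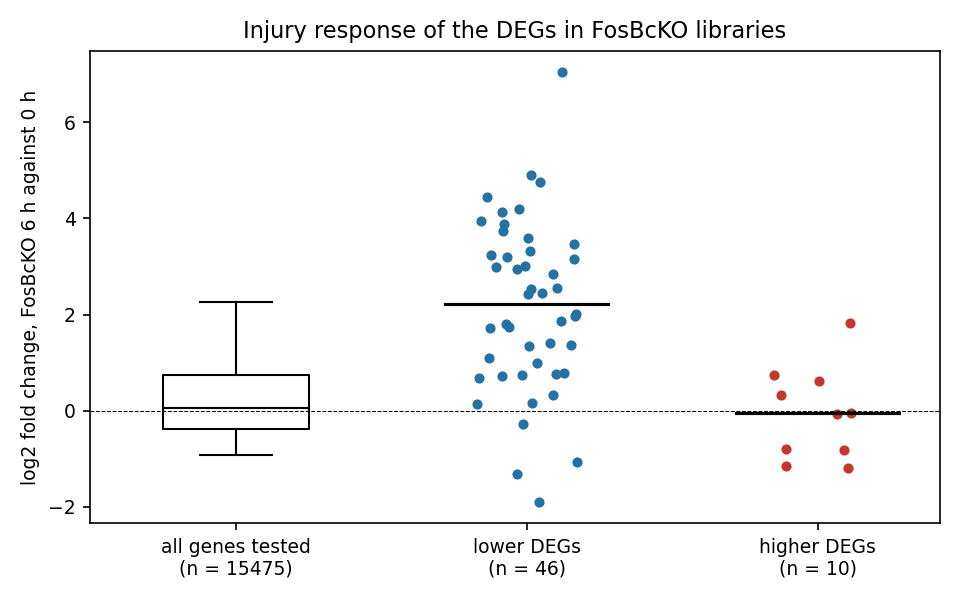
Log2 fold change of FosBcKO LECs at 6 h PCS against 0 h (vertical axis) for all 15475 genes tested (box: quartiles and median, whiskers: central 90% of genes), the 46 lower DEGs and the 10 tested higher DEGs of uninjured Egr1KO LECs (points, with the median as a line). The lower DEGs center on 2.22 and the higher DEGs on -0.05.

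The 23 lower DEGs that rose with injury in FosBcKO were more abundant than the 23 that did not pass that test. The risers had a median group mean of 30.6 CPM in WT and 14.6 CPM in Egr1KO at 0 h, and of 171 CPM in WT and 109 CPM in Egr1KO at 6 h PCS. The others had medians of 9.42 and 2.05 CPM at 0 h and of 17.7 and 8.99 CPM at 6 h PCS. The median log2 fold change between Egr1KO and WT at 0 h was -1.45 for the risers and -2.37 for the others. At 6 h it was -0.29 and -0.13. Of the 23 others, 10 still had a log2 injury response above 1 and 4 had a negative one. The largest response among them was 7.04 with a standard error of 2.25 and an FDR of 0.0925 in the quasi-likelihood F-test. A gene among the others is thus not shown to lack a response. The log2 fold changes of the others at 0 h had a median standard error of 0.38 against 0.24 for the risers. The riser with the strongest response was also one of the 7 genes called at both times, with a log2 injury response of 4.90 in FosBcKO.

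The injury responses of WT and Egr1KO LECs share their 0 h libraries with the comparison that chose the genes, which by that choice lowers the one and raises the other, so they are given side by side without a test. In WT, 28 of the 46 lower DEGs rose by 6 h PCS and 2 fell, with a median log2 fold change of 1.68, where 13.5% of all genes rose and 3.64% fell. In Egr1KO, 31 of the 40 that were tested rose and none fell, with a median of 3.01, where 9.28% of all genes rose and 2.69% fell. The median level of the 46 genes at 6 h PCS was 53.9, 70.9 and 47.4 CPM in WT and 18.9, 44.2 and 36.1 CPM in Egr1KO. Their summed level was 7411, 7639 and 4725 CPM in WT and 5296, 4929 and 5845 CPM in Egr1KO, so the sums overlapped at 6 h and did not at 0 h. Of the higher DEGs, 2 of 9 tested rose and 1 fell in WT, and none of 13 was called in Egr1KO.

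**Figure D3:**
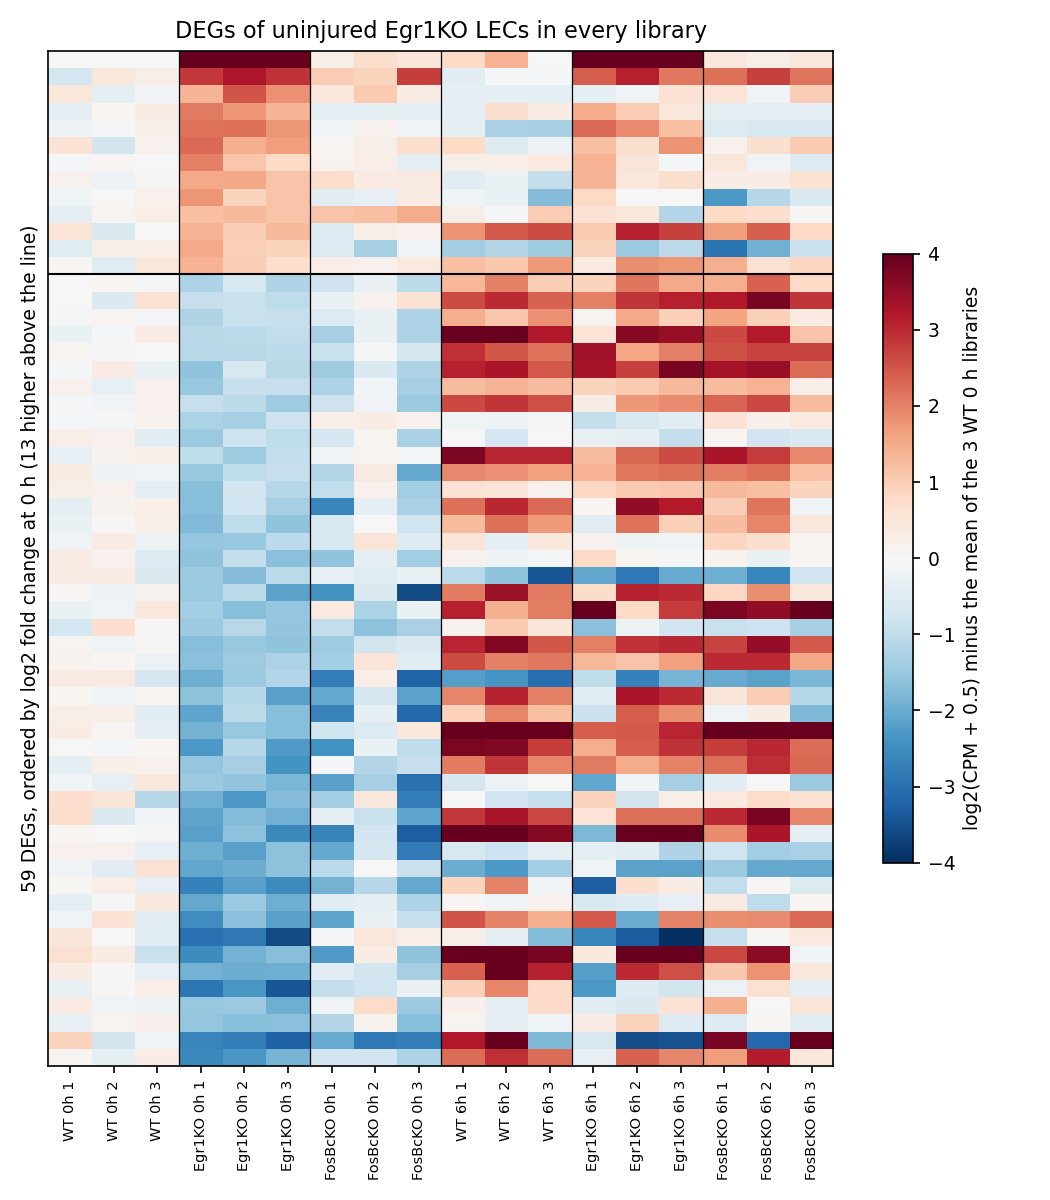
Level of each of the 59 DEGs (rows, ordered by log2 fold change at 0 h, the 13 higher above the black line) in each of the 18 libraries (columns), as log2(CPM + 0.5) minus the mean of the WT libraries at 0 h; colors end at -4 and 4. The lower DEGs are blue in the 3 Egr1KO libraries at 0 h, less evenly blue in the FosBcKO libraries at 0 h, and mostly red in all genotypes at 6 h PCS, while most higher DEGs are reddest in Egr1KO.

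Whether the difference between Egr1KO and WT itself changed with injury was tested as an interaction of genotype and time over 12 libraries. The quasi-likelihood F-test called 0 of 16552 genes (0%), with a lowest FDR of 0.675, while 1009 genes (6.10%) had an unadjusted p-value under 0.05. DESeq2's Wald test called 14 genes, 2 of them DEGs at 0 h, and the quasi-likelihood F-test without the filter on low counts called 238, 24 of them DEGs at 0 h. Among the lower DEGs 25 of 46 had an unadjusted p-value under 0.05, and among the higher DEGs 2 of 13. This count is a description, since the 0 h libraries that chose the genes enter the interaction.

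The uninjured FosBcKO LECs gave a second view of the same genes. Their comparison with WT uses the same WT libraries as the Egr1KO comparison, and their comparison with Egr1KO uses the same Egr1KO libraries, so the values are set side by side only. For the 46 lower DEGs the median log2 fold change was -1.66 for Egr1KO against WT, -0.88 for FosBcKO against WT and, over the 35 tested, -0.57 for Egr1KO against FosBcKO. In FosBcKO against WT 4 of the 46 were DEGs, all lower in FosBcKO, where 0.295% of all genes were DEGs in either direction. Against FosBcKO, 7 of those 35 were DEGs lower in Egr1KO, where 0.734% of all genes were. For the 13 higher DEGs the median was 1.47 for Egr1KO against WT, 0.13 for FosBcKO against WT over the 10 tested, and 1.47 for Egr1KO against FosBcKO. Of these 13, 8 were DEGs higher in Egr1KO than in FosBcKO, where 0.226% of all genes were. The higher DEGs summed to 287, 288 and 353 CPM in the FosBcKO libraries at 0 h, below the 666 CPM of the lowest Egr1KO library. The most abundant lower DEG measured 586, 851 and 750 CPM in FosBcKO at 0 h, overlapping WT and far above Egr1KO.

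Among the 9 libraries at 0 h, the 4 with the highest percentage of pairs aligned outside annotated genes also had the highest median level of the lower DEGs, and the other 5 showed no such order. The choice of the 46 genes placed the WT libraries above the Egr1KO libraries in advance, so only the FosBcKO libraries were free in this order. In FosBcKO replicates 1 to 3 the share of pairs outside annotated genes was 10.5%, 20.9% and 8.03%, and the median level of the 46 genes was 5.13, 12.2 and 6.74 CPM. FosBcKO replicate 2, with the high share, lay within the WT range of 12.2 to 16.0 CPM. FosBcKO replicate 1 lay within the Egr1KO range of 4.04 to 5.28 CPM, and FosBcKO replicate 3, with the lowest share of all, lay between the WT and Egr1KO ranges. The summed level of the 46 genes was 1187, 1772 and 1338 CPM in FosBcKO replicates 1 to 3, above every Egr1KO library, and in replicates 1 and 3 below every WT library. At 6 h PCS the share was 20.0% to 30.5% in all genotypes, and the median level of the 46 genes was 18.2 to 70.9 CPM, above every 0 h library. Whether this share has a part in the lower DEGs was not tested, and within the WT and Egr1KO libraries at 0 h it cannot be told apart from genotype.

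**Figure D4:**
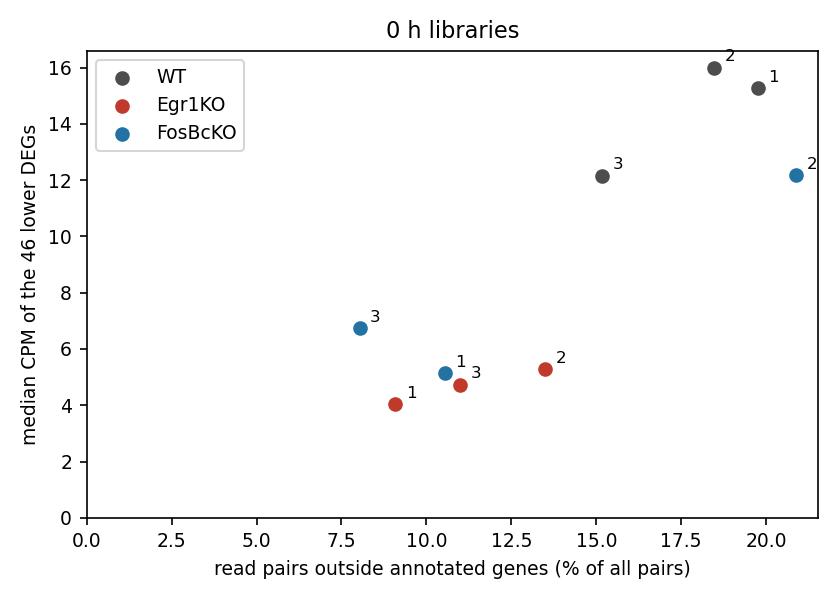
Median CPM of the 46 lower DEGs (vertical axis) against the percentage of pairs aligned outside annotated genes (horizontal axis), in the 9 libraries at 0 h; each point is a library with its replicate number. FosBcKO replicate 2 (20.9%, 12.2 CPM) lies with the WT libraries, FosBcKO replicate 1 lies with Egr1KO, and FosBcKO replicate 3 (8.03%, 6.74 CPM) lies above Egr1KO at the lowest percentage.

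The set of DEGs depended on the test and on single libraries. The quasi-likelihood F-test called 17 genes (0.118%), 5 higher and 12 lower, all of them among the 59. Leaving out each of the 6 libraries in turn, 4 of the higher and 11 of the lower DEGs were called in all 6 fits, and 5 and 24 were called in at most 2. All 13 and all 46 kept their direction in each fit, which the gap between their groups favors. Without Egr1KO replicate 1 there were 32 DEGs, 22 of them among the 59, and without Egr1KO replicate 3 there were 33, with 23 among the 59. Without WT replicate 3 there were 89, with 44 among the 59.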

How the data were processed

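RNA of pooled lens capsules was sequenced as stranded, ribodepleted, paired-end libraries. The authors aligned the reads with HISAT2 and assigned them to Ensembl genes by HTSeq (union mode). What they deposited are unnormalized counts of read pairs for each gene. The study's methods name the GRCm38 build and the submitters' processing notes GRCm39, and no coordinates are given. Summary lines that name no gene entered neither library sizes nor tests. Among them were pairs outside annotated genes, at 9.09% to 19.8% of all pairs in the 6 libraries at 0 h, and pairs that did not align, at 12.2% to 16.9%. No molecular identifiers were used, so counts include PCR copies, and intervals or floors cover counting error only. Replicates were separate pools of capsules, and p-values measure the spread between these pools. Deviations of same-numbered libraries from their group means correlated at 0.10 to 0.25 between WT 0 h and WT 6 h (over 0.1 in 3 of 3 pairs). The correlation across times was also over 0.1 in 2 of 3 FosBcKO and 1 of 3 Egr1KO pairs. Between WT and Egr1KO at 6 h, which are different mice, it ran from -0.195 to 0.198. This check thus cannot settle whether the numbers pair libraries across times. Counts of replicates differed by more than sampling noise (chi-square per degree of freedom 10.4 to 26.0).

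Tests used edgeR 4.0.16 in R 4.3.3 with filterByExpr, TMM scaling, robust dispersions and Benjamini-Hochberg adjustment over all genes tested. Each used the 6 libraries of its contrast. The exact test compared genotypes, the quasi-likelihood F-test compared times and tested the interaction over 12 libraries, and the latter also gave the standard errors. CPM was scaled to the sum of a library's gene counts, without TMM. Alternatives included DESeq2 1.42.0, other filters and scalings, and leaving out each library. The scripts were tested on simulated data. The requirement of the study that a DEG exceed a minimum of FPKM was not applied.

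The members and lists were chosen with earlier results of these data known. None of the 55416 IDs was found in the RefSeq gene table, which lists no Ensembl IDs, and the deposited tables do not pair IDs with names, so gene lists, cell type markers, the level of Egr1, promoters and positions are not analysed here. The genes printed are the 2 highest and 2 lowest DEGs by log2 fold change with an average log2 CPM of at least 1 and no overlap between the groups. The limit of 2 replaced a longer list once no names could be used, and the most abundant DEG in each direction was added after its values were seen.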

Additional observations from a re-analysis of the deposited data

How the results depend on the processing

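The number of DEGs between Egr1KO and WT at 0 h was 59 by the exact test, 17 by the quasi-likelihood F-test, 2 when that test was fitted to all 18 libraries (1 higher, 1 lower), and 32 to 89 when each library was left out. It was 41 to 81 with DESeq2, with RLE scaling, without a filter, with a minimum of 10 counts in 3 libraries, without the robust option or without a fold minimum, and scaling without the 10 most abundant genes, chosen after seeing the data, gave 59. The count of these DEGs called at 6 h was 7, or 0 by the quasi-likelihood F-test, and 5 to 11 when each library was left out, with the 11 found without Egr1KO 6 h replicate 2. The count called between FosBcKO 6 h and 0 h was 24, and 13 to 29 when each library was left out. The interaction had 0 calls, 14 by DESeq2 and 238 with no filter, 24 of them among the 59, and 0 in each fit that left out a library. The cause of these differences was not tested.

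Replicate numbers did not pair WT and Egr1KO libraries at 0 h, where same-numbered libraries had correlations of -0.08 to -0.03. With the replicate number as a block, the quasi-likelihood F-test called 10 genes at 0 h (4 higher, 6 lower), 9 of them among the 59, 0 of the 59 at 6 h, 35 in FosBcKO, where the lower DEGs that rose were 31 in place of 23, and 0 in the interaction. In a block fit added after seeing the data, 28 lower DEGs rose with injury in WT, as without the block, and 29 in Egr1KO in place of 31. Of 40 alternatives for the 4 printed genes, 37 kept direction and call, and the 3 that lost the call were those with the block (FDR 0.167, 0.0676 and 0.0744 in edgeR's quasi-likelihood F-test). These 40 did not include the quasi-likelihood F-test fitted to all 18 libraries. That fit called 1 higher and 1 lower gene, so not all 4 printed genes were called in it. Scaling without crystallin or mitochondrial genes and the FPKM limit of the study were not run.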
